A study of Homo sapiens with 4 samples.

Results

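Romidepsin was added to tamoxifen in cultures of the human pancreatic cancer line Panc1, and the comparison described here sets cells given both drugs against cells given tamoxifen alone. It uses 2 of the 4 Affymetrix arrays of the study, 1 array per condition, the other conditions being untreated cells and romidepsin alone. All cells grew in RPMI1640 medium with fetal bovine serum, and the drugs were given for 24 hours. Tamoxifen is present on both sides of the comparison, so a difference between the arrays is one found with romidepsin added. Doses, and whether the untreated cells received a solvent, were not stated in the labels used here. Of the 54675 probe sets on the array, 41091 name 1 gene, and these cover 19775 genes. A gene was measured where its signal lay above a floor of 66.4, the median of all non-control signals, on at least 1 of the 2 arrays, and 13893 genes were. The other 5882 lay below the floor on both. A gene is said to have risen or fallen where its signal differed at least 2-fold, and "at least" before a fold marks a bound, because the lower array was below the floor. With 1 array per condition there is no replicate error, no test was made, and every value describes these arrays only.

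Histone deacetylases remove acetyl groups from lysines of histones and other proteins, and acetylated histone tails are found at active promoters and enhancers. Romidepsin is a cyclic peptide prodrug whose reduced form binds the zinc of class I histone deacetylases, chiefly HDAC1 and HDAC2. Inhibitors of this class are known to raise CDKN1A, the gene of the cell cycle brake p21, and to switch on genes silent in the treated tissue. Tamoxifen is a selective estrogen receptor modulator that also binds the antiestrogen binding site, a complex of the sterol-modifying enzymes EBP and DHCR7, and is known to raise transcripts of cholesterol synthesis in cells that lack estrogen receptor.

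The 4 arrays were close to each other in median signal, less so in their spike-in controls. Median signals lay between 59.5 and 73.0, with 65.95 for tamoxifen and 73.0 for the combination, and 12479 and 13150 genes lay above the floor on these arrays. The ratio of the actin control's 3′ signal to its 5′ signal, a measure of RNA integrity, was 1.39 with tamoxifen and 1.73 with the combination, against 1.21 in untreated cells and 1.18 with romidepsin. The ratio for GAPDH lay between 1.03 and 1.07 on all 4 arrays. Hybridization spike-ins on the combination array stood at 1.05 times their level on the tamoxifen array. On the untreated and romidepsin arrays they stood at 1.28 and 1.30 times that level. Where the 4 arrays are ranked below, signals were not scaled to the spike-ins. The part of RNA integrity in the results below was not tested.

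Markers fixed for the cell types of the pancreas bore out the label in part. Of 8 markers of ducts and duct carcinoma, KRT19 and CFTR lay below the floor on all 4 arrays, and the keratin genes KRT18 and KRT8 gave signals of 16359 and 6125 with tamoxifen and 11344 and 4153 with the combination. EPCAM rose 6.60-fold, from 71.9 to 475, while KRT7 was 2.59-fold and MUC1 2.22-fold lower, or -0.17 and -0.73 on the log2 scale when the median over each gene's probe sets was taken; SOX9 was 1.25-fold lower and not called. The summed signal of the list was 29109 and 20889. All 5 endocrine markers with a probe set, insulin and glucagon among them, lay below the floor on both arrays, as did 3 of 5 acinar markers. Of 8 fibroblast and stellate markers, 5 lay below the floor, and the list's sum, mostly COL1A1, went from 9457 to 6776. COL1A1 was 1.44-fold lower and not called, and its probe sets did not all move the same way. ACTA2, the only member called, rose at least 2.77-fold, from below the floor to 184. The leukocyte genes PTPRC, CD3E, CD14 and LYZ and the endothelial genes CDH5, CLDN5 and TEK were below the floor on both arrays. In these lists the receptor genes CSF1R, at least 7.31-fold, and KDR, at least 4.38-fold, were higher with romidepsin added, and the sums went from 403 to 864 and from 250 to 554. In a bulk sample, fewer cells of a type and less RNA per cell cannot be told apart.

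With romidepsin added, 2051 genes rose and 1644 fell, which is 14.8% and 11.8% of the genes measured. The counts of every list below are to be read against these shares. The rises are 55.5% of these calls, and with arrays centred on their medians, which lowered the median log2 fold of all genes by 0.13 on the log2 scale, 1690 genes rose and 2002 fell, or 45.8% rises. The median log2 fold over all genes measured was 0.05, with quartiles of -0.49 and 0.62. At least 4-fold differences were found for 554 genes higher and 340 lower, and at least 10-fold differences for 114 and 36. For 549 of the rises and 111 of the falls 1 array lay below the floor, so that the fold is a bound, and such a gene could differ in 1 direction only. Near the threshold the calls are arbitrary: 1581 genes differed by 1.8-fold to 2.2-fold, CALCOCO2 rose by 2.0004-fold, and GBF1, at 1.9987-fold, was not called. Agreement between probe sets was read only where signals lay above the floor on both arrays. Of 1386 genes called there with another such probe set, 1340 had it on the same side, and 886 had it at least 2-fold as well. Calls with an array below the floor are not covered. For 3160 genes with 2 probe sets above the floor on both arrays, the 2 log2 folds differed by a median of 0.30. This technical spread leaves out variation between cultures. Of the 363 called genes that are in a list or named here, 277 kept their call with the median over a gene's probe sets, in which a probe set below the floor counts as no difference; 68 came under 2-fold, 2 changed sign and 16 were no longer measured. Without probe sets that can read several transcripts 239 kept it, 15 came under 2-fold, 6 changed sign and 103 had no value. With the floor raised to the 75th percentile, a signal of 408, 250 kept it, 48 came under 2-fold and 65 were no longer measured. A gene named in the text that came under 2-fold or changed sign under either rule for probe sets is given with that result for at least 1 of the rules.

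Rises were found mostly among dim genes and falls mostly among bright ones, as ranked on the untreated array, which is outside the comparison. Of 2026 genes below the floor there, 28.5% rose and 0.444% fell, where a fall is hardly possible. Of these, 1134 were below the floor with tamoxifen too. They were measured only through the combination array and could only rise or stay uncalled. Of 3956 genes in the lowest part of the remaining range, 21.2% rose and 7.56% fell, and 280 could likewise only rise. In the middle part 11.6% rose and 14.99% fell, and in the brightest part, with signals of at least 1538, 4.42% rose and 18.8% fell. Long noncoding RNAs rose as often as protein-coding genes, 14.3% of 911 against 14.8% of 12714, and fell in 6.15% against 12.4%. The median length of a gene was 36.3 kb among those that rose, 29.7 kb among those that fell and 27.4 kb among those not called.

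**Figure D1:**
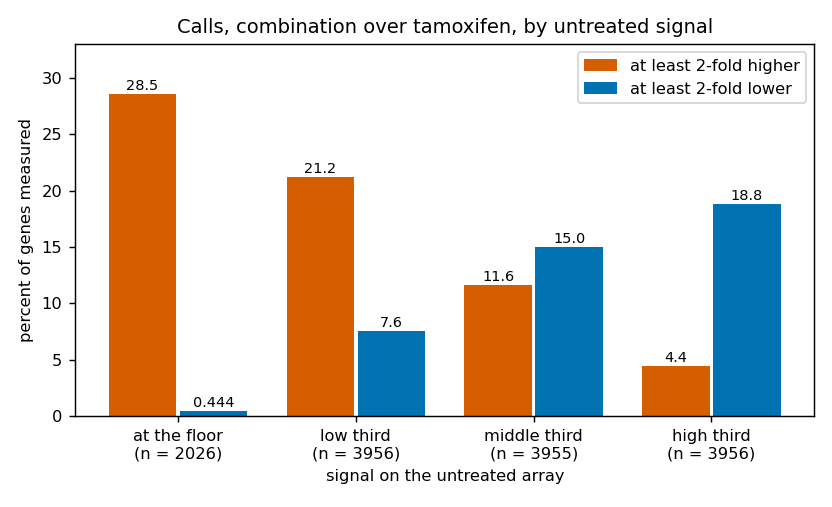
Percent of genes at least 2-fold higher or lower in the combination than with tamoxifen (vertical axis), for genes grouped by their signal on the untreated array (horizontal axis). The share of rises goes from 28.5% at the floor to 4.42% in the brightest part, and the share of falls from 0.444% to 18.8%. At the floor, 1134 of 2026 genes were measured only through the combination array and could only rise.

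Above the floor on both arrays, rises reached 49.8-fold. DHRS2, a short-chain dehydrogenase reported to respond to deacetylase inhibitors, had signals of 346 in untreated cells, 23549 with romidepsin, 504 with tamoxifen and 25122 with the combination, 49.8-fold higher than with tamoxifen. Both arrays with romidepsin were high and both without it low. SESN3, a sestrin that restrains the growth kinase mTORC1, was below the floor in untreated cells and gave 2016 with romidepsin, 94.4 with tamoxifen and 4439 with the combination, 47.0-fold higher. The combination was the highest of the 4 arrays. PRKAR2B, a protein kinase A regulatory subunit, rose 41.3-fold. GATM, which makes the precursor of creatine, rose 25.9-fold. The Notch ligand DNER rose 23.6-fold, the orphan receptor GPR160 23.4-fold and the thyroid hormone binding protein CRYM 22.9-fold. SERPINI1, which encodes the neuronal protease inhibitor neuroserpin, gave 152, 2477, 367 and 8163 in the same order of arrays, a 22.2-fold rise that ended above the romidepsin array. ABAT, which breaks down the transmitter GABA, rose 20.2-fold, against 43.9-fold without tamoxifen. The ephrin receptor EPHB3 rose 19.9-fold, the granzyme inhibitor SERPINB9 19.0-fold and the protocadherin PCDH9 18.3-fold. The tamoxifen signals of SESN3, PRKAR2B, GATM, CRYM, EPHB3 and PCDH9 lay under 95, so the choice of floor bears on these folds. With the floor at the 75th percentile the log2 folds of these 12 genes lay between 1.70 for EPHB3 and 5.64 for DHRS2, and that of SESN3 was 3.44 in place of 5.55. With the median over probe sets the log2 fold of SESN3 was 1.65, that of SERPINB9 1.46 and that of PCDH9 0.82, the last under 2-fold. GATM was no longer measured under that rule.

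Other genes rose from below the floor. CYP4F2, a fatty acid hydroxylase, was below the floor in untreated cells and with tamoxifen and gave 1787 with romidepsin and 4941 with the combination, at least 74.4-fold. The neuronal glucose transporter SLC2A3 rose at least 59.4-fold, from below the floor to 3944, and ENPP5 at least 54.5-fold. The pseudogene CEP192P1 rose at least 53.9-fold and SELENOP, which carries selenium in plasma, at least 52.3-fold. The signals of these 5 genes were also between 1108 and 2002 with romidepsin alone, and in each the combination gave the highest of the 4. With the median over probe sets SELENOP had a log2 fold of 0.69, under 2-fold, and ENPP5 of 4.41. CYP4F2 had 1 measured probe set, of a kind that can read several transcripts. Without such probe sets CYP4F2 and SLC2A3 had no value. With the floor at the 75th percentile the log2 folds lay between 3.09 for SELENOP and 3.60 for CYP4F2.

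Above the floor on both arrays, falls reached 61.9-fold. PLAU, the gene of the urokinase plasminogen activator, gave 9337 in untreated cells, 296 with romidepsin, 8626 with tamoxifen and 139 with the combination, 61.9-fold lower than with tamoxifen. NUPR1, a nuclear stress-response protein, gave 3581, 192, 7102 and 197 in the same order and was 36.03-fold lower. The combination and romidepsin arrays hardly differed in NUPR1, and the tamoxifen array was the highest. MYOF (myoferlin), a membrane repair protein, was 29.3-fold lower and TFPI, the inhibitor of the tissue factor pathway of clotting, 27.9-fold lower. TFPI was 7.20-fold lower without tamoxifen. The netrin NTN4 fell 23.2-fold, the semaphorin and VEGF co-receptor NRP1 20.1-fold and the retinol dehydrogenase DHRS9 19.7-fold. FOSL1, the AP-1 subunit FRA1, was 19.5-fold lower, with 3081 and 158. ARSJ fell 18.3-fold, RIN2 16.6-fold and RGS20, a regulator of G protein signalling, 16.2-fold. TM4SF1, a tetraspanin-like surface protein, gave 28519, 5108, 30438 and 1761 and was 17.3-fold lower, against 5.58-fold without tamoxifen. Of genes that ended below the floor, the collagen chaperone SERPINH1 fell at least 16.7-fold, DRC8 at least 16.2-fold, the ankyrin ANK1 at least 10.7-fold, the antisense RNA SSTR5-AS1 at least 9.29-fold and ASB4 at least 8.80-fold. With the median over probe sets the log2 fold was -0.52 for NRP1 and -0.24 for ASB4, both under 2-fold, -2.63 for TFPI, -2.03 for RIN2, -3.28 for RGS20 and -3.09 for DRC8. Without probe sets that can read several transcripts MYOF came to just under 2-fold lower and ANK1 to -1.22 on the log2 scale. With the floor at the 75th percentile the 12 falls above the floor lay between -4.77 for MYOF and -1.89 for RIN2 on the log2 scale, and of the other 5 ANK1, SSTR5-AS1 and ASB4 came under 2-fold, at -0.80, -0.59 and -0.52. SSTR5-AS1 overlaps its partner gene, and the strand that its probes read was not checked here.

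**Figure D2:**
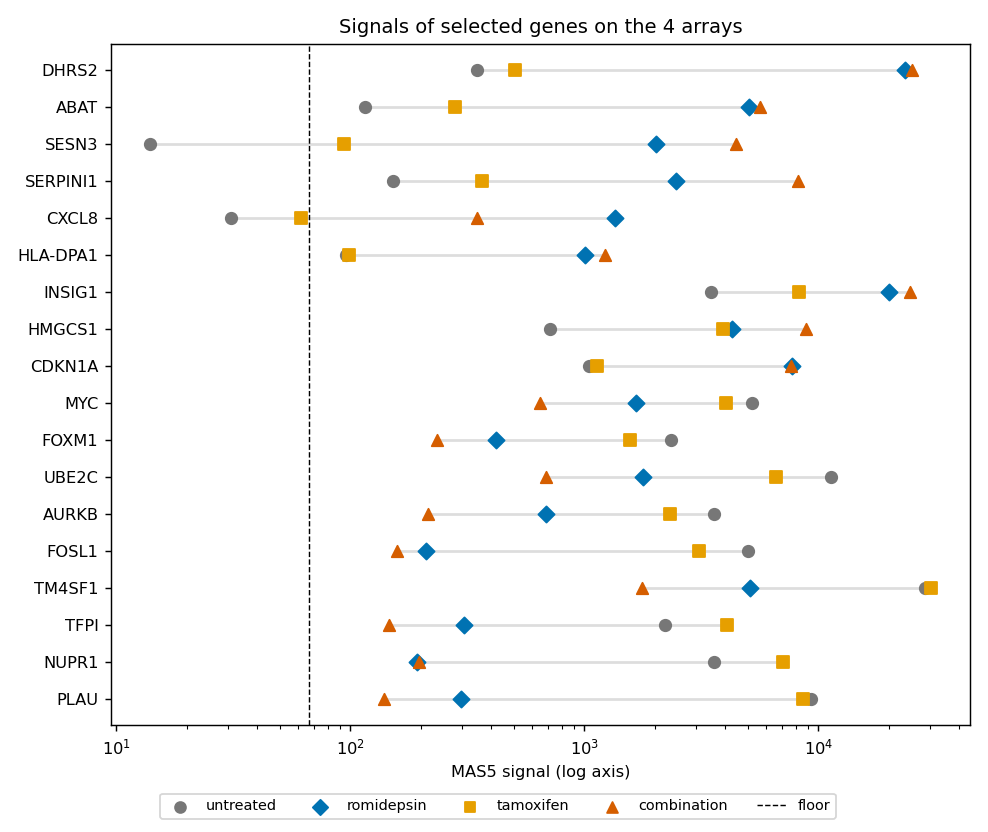
MAS5 signal (horizontal log axis) of 18 genes on the 4 arrays, with 1 point per array and a dashed line at the floor of 66.4, below which points have no order. With romidepsin added to tamoxifen, DHRS2, ABAT, SESN3 and SERPINI1 stand at the right and PLAU, TFPI, TM4SF1, AURKB and UBE2C at the left of their tamoxifen points.

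The same question can be asked without tamoxifen, by setting romidepsin alone against untreated cells. Those arrays are not the arrays of the comparison above. In that comparison 14.3% of 13619 genes measured rose and 9.27% fell. Of the 2051 genes that rose with tamoxifen present, 1488 rose without it as well, 72.5% of the former and 76.2% of the latter. Of the 1644 that fell, 1009 also fell without tamoxifen, 61.4% of the former and 79.9% of the latter. The sign was the same for 98.1% of the rises and 98.1% of the falls. Over 11058 genes above the floor on all 4 arrays, the log2 folds correlated at r = 0.90 and rho = 0.88, with a slope of 0.97; genes share probe sets and scaling and are not replicates. They were within 2-fold of each other for 96.9% of these genes. Among the other 345 genes, the fold was more negative with tamoxifen present for 247 and more positive for 98. Genes that fell with tamoxifen present had a median log2 fold of -1.44 with it and -1.15 without it, and those that rose had 1.5 and 1.41. These genes were chosen on the folds with tamoxifen, which by itself favours the larger value there.

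**Figure D3:**
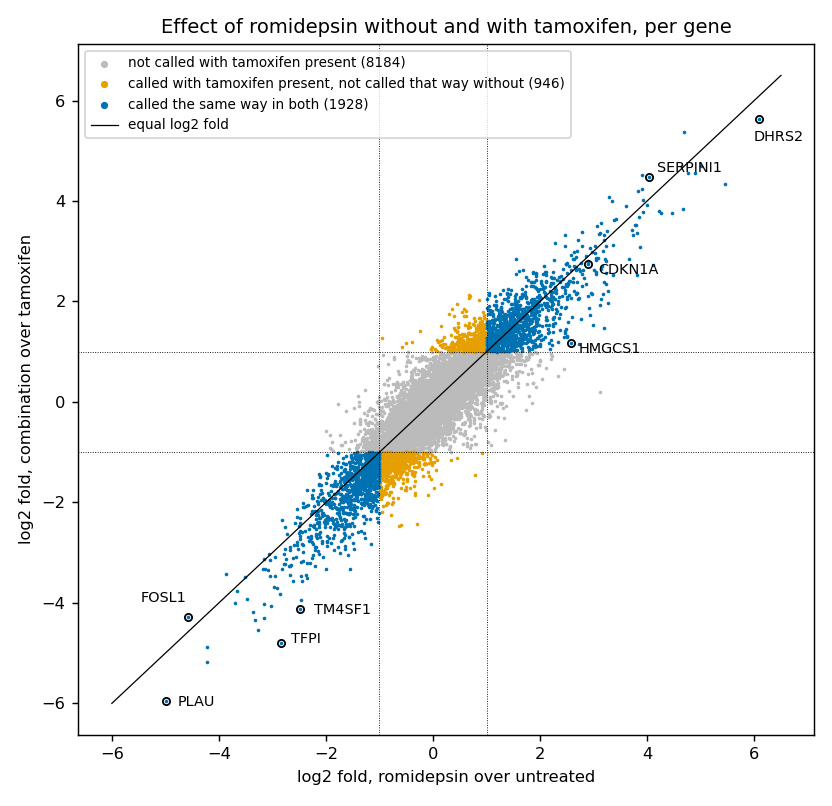
Each point is a gene above the floor on all 4 arrays, with the log2 fold of romidepsin over untreated cells (horizontal axis) against that of the combination over tamoxifen (vertical axis); dotted lines mark 2-fold and the solid line equal folds. Genes lie along the solid line (r = 0.90 over 11058 genes), with PLAU, TFPI and TM4SF1 below it and HMGCS1, at 2.24-fold against 5.97-fold, also below it.

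Of the genes that changed with tamoxifen present, 45 that rose and 59 that fell stood within 1.2-fold without it, signals below the floor being set to the floor. The 6 largest differences each way were all found in dim genes. Those that rose were ALOX12-AS1, at least 4.53-fold, the interferon-induced chemokine CXCL11, at least 4.10-fold, TTC29, at least 3.20-fold, the imprinted noncoding RNA KCNQ1OT1, at least 3.11-fold, CFAP69, at least 2.98-fold, and the elastic fibre gene EFEMP2, 2.85-fold. On the lower side were the epithelial transcription factor ELF3, at least 4.03-fold, PROM2, at least 3.85-fold, PRR36, 3.26-fold, LINC00537, at least 3.12-fold, NT5M, 3.08-fold, and MRNIP, at least 3.03-fold. None of these 12 genes had a signal over 333 on any of the 4 arrays. With the median over probe sets KCNQ1OT1 and LINC00537 had log2 folds of 0.43 and -0.85, under 2-fold, and ELF3 and PROM2 were no longer measured.

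Mitosis genes were lower with romidepsin added, almost without exception. The list of genes of mitotic entry, spindle and exit has 33 members, all measured, of which 31 fell and 0 rose. Its median log2 fold was -2.204, against 0.05 for all genes measured. The exceptions were the kinesin CENPE, 1.35-fold lower, and the securin gene PTTG1, 1.79-fold lower. FOXM1, the transcription factor that drives many of these genes, had a signal of 2353 in untreated cells, 421 with romidepsin, 1568 with tamoxifen and 236 with the combination, 6.66-fold lower than with tamoxifen. The combination was the lowest array and the arrays without romidepsin were both higher than those with it.

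Mitotic kinases and genes of the ubiquitin pathway were among those that fell most. AURKB, the kinase of the chromosomal passenger complex, gave 3569, 685, 2326 and 214 in the order untreated, romidepsin, tamoxifen, combination, and fell 10.9-fold. UBE2C, the ubiquitin-conjugating enzyme of the anaphase-promoting complex, went from 6624 with tamoxifen to 686, 9.66-fold lower. The Polo-like kinase PLK1 was 9.13-fold lower, at 1145 and 125. The separase gene ESPL1 fell 7.04-fold and the kinesin KIF20A 6.70-fold. Cyclin A2 (CCNA2) was 6.49-fold lower, the anaphase activator CDC20 6.09-fold and survivin (BIRC5) 6.01-fold. The checkpoint kinase BUB1B fell 5.80-fold, AURKA 5.79-fold, the midzone protein PRC1 5.44-fold and the phosphatase CDC25B 5.12-fold. MKI67, the gene of the Ki-67 antigen, went from 2383 to 506, 4.71-fold lower, and TOP2A, the topoisomerase that untangles sister chromatids, from 7224 to 1530, 4.72-fold lower. CDK1 gave 5150, 2565, 9185 and 1996, and was 4.60-fold lower with tamoxifen present and 2.01-fold without it.

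Without tamoxifen 26 of the 33 genes fell, with a median log2 fold of -1.57. In 32 of the 33 the log2 fold was the more negative with tamoxifen present, and in 28 the combination gave the lowest of the 4 signals. This was a difference of 1 array against 1 in each case and was not tested. The same counts were not made over all genes. Among all genes that fell with tamoxifen present, the median log2 fold was also the more negative with it, -1.44 against -1.15. The list held its direction under every scaling tried, with medians from -2.35 to -2.204.

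Promoters of the mitosis list were searched for known sequence elements. The shares for the list describe the genes chosen for it and do not depend on these arrays. Genes of late cell cycle stages commonly carry a CHR element bound by the DREAM and MuvB complexes, and CCAAT boxes bound by NF-Y. In windows from 250 bases before to 50 bases after the start site, taken from RefSeq (GRCh38.p14), promoters of 27 of the 33 genes were matched. The CHR letters TTTGAA or TTCGAA stood on either strand in 17 of these, 63.0%, against 16.6% of all 27305 promoters in the table. The letters CCAAT stood on either strand in 22, 81.5%, against 35.7%, and both motifs in 16, 59.3%, against 6.58%. Of promoters of genes that fell and are in neither the mitosis nor the replication list, 14.6% held CHR letters, and of genes not called 11.02%. A match is a description of letters and does not show that a protein is bound.

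The 120 bases before the start of 4 mitosis genes that fell are shown because they hold both motifs close together. Capitals mark the CHR letters and the CCAAT box, the latter as ATTGG where it lies on the other strand, and every sequence runs 5′ to 3′ towards the start.
PLK1, chr16:23678769-23678888, plus strand: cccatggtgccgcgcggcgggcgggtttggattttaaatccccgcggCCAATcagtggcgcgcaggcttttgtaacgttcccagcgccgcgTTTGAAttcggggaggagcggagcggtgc
ESPL1, chr12:53268179-53268298, plus strand: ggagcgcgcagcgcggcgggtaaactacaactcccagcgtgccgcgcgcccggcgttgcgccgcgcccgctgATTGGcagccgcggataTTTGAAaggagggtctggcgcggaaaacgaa
CDC20, chr1:43358861-43358980, plus strand: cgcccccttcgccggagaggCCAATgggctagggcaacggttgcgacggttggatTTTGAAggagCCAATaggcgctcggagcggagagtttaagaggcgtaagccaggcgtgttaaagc
PRC1, chr15:90994536-90994655, minus strand: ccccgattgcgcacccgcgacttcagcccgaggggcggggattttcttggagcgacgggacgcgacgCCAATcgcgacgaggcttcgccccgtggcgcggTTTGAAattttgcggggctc
In PLK1 the CHR letters begin 29 bases before the start and the CCAAT box 73 bases before it. AURKB, which fell most in the list, has neither motif in its 120 bases.

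Replication genes were also lower with romidepsin added. The list for DNA replication and entry into S phase had 33 measured members, and 21 of them fell while 0 rose. Its median log2 fold was -1.26, and without tamoxifen 17 fell. UHRF1, which guides maintenance methylation of newly made DNA, gave 8008 in untreated cells, 1379 with romidepsin, 4794 with tamoxifen and 667 with the combination, 7.19-fold lower than with tamoxifen. TYMS, the thymidylate synthase, went from 24470 to 3428, 7.14-fold lower. The phosphatase CDC25A fell 4.74-fold, and of the replicative helicase MCM5 fell 4.50-fold, MCM7 4.03-fold, MCM2 2.72-fold, MCM4 2.62-fold and MCM3 2.23-fold. The licensing factor CDT1 was 3.79-fold lower, MCM10 3.48-fold, and the ribonucleotide reductase subunits RRM2 and RRM1 3.35-fold and 2.39-fold. For RRM2 the difference without tamoxifen was 1.43-fold, with signals of 13763 and 9607. E2F1, a transcription factor of this stage, fell 2.45-fold and E2F2 2.80-fold, the latter with a log2 fold of -0.34 by the median over probe sets.

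E2F factors bind GC-rich letters in promoters of replication genes. The shares for the replication list likewise do not depend on these arrays. Any of TTTCCCGC, TTTCGCGC, TTTGCCGC and TTTGGCGC, on either strand, stood in 60.0% of the 30 replication promoters matched, in 11.1% of the mitosis promoters and in 3.33% of all promoters. CHR letters stood in 6.67% of the replication promoters. The GC box letters GGGCGG, a common promoter motif, stood in 76.7% of the replication and 81.5% of the mitosis promoters, and in 67.7% of promoters of genes not called, against 44.6% of all promoters in the table. For E2F letters the share among genes not called was 5.27%. The 120 bases before the start of 4 replication genes that fell are shown, with the E2F letters in capitals.
UHRF1, chr19:4909381-4909500, plus strand: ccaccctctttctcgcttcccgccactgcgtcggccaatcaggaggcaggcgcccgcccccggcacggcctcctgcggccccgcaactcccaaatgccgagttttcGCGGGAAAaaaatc
TYMS, chr18:657533-657652, plus strand: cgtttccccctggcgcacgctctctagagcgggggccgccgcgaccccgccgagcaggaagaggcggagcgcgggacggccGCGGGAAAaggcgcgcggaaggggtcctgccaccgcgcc
CDC25A, chr3:48188418-48188537, minus strand: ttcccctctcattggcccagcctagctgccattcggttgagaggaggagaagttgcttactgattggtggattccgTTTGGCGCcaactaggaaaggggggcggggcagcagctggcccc
MCM7, chr7:100101398-100101517, minus strand: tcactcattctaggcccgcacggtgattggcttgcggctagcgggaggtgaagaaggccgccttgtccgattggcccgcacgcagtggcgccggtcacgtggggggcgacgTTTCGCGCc

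**Figure D4:**
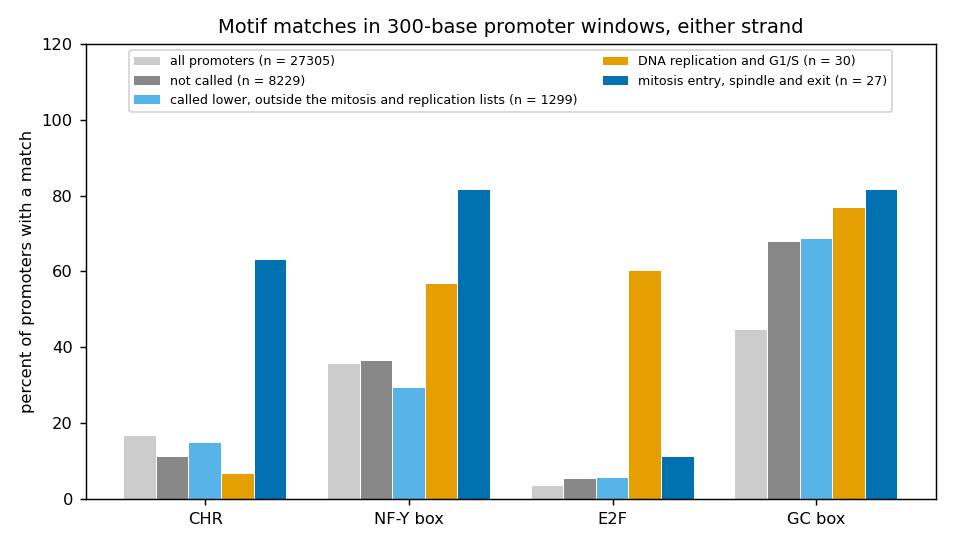
Percent of RefSeq promoter windows that hold a motif on either strand (vertical axis), for 4 motifs and 5 sets of genes; the NF-Y box is the CCAAT box. CHR letters stand in 63.0% of mitosis promoters and 6.67% of replication promoters, and E2F letters in 11.1% and 60.0%.

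DNA repair by homologous recombination and the Fanconi pathway gave 4 falls and 0 rises among 10 genes, and the list median was -0.89 on the log2 scale. RAD51AP1 fell 5.94-fold, against 2.53-fold without tamoxifen, RAD54L at least 3.74-fold, FANCI 2.87-fold and the nuclease EXO1 2.71-fold.

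Inhibitors of cyclin-dependent kinases were split. CDKN1A gave 1047 in untreated cells, 7755 with romidepsin, 1138 with tamoxifen and 7644 with the combination, 6.72-fold higher than with tamoxifen. The arrays with romidepsin were level with each other, as were those without it. CDKN2D (p19) rose 3.54-fold and CDKN1C (p57) 2.29-fold, while CDKN1B (p27) fell 3.69-fold, from 2913 to 791. For CDKN1C the tamoxifen signal of 1598 was above the untreated 718, and the romidepsin arrays gave 3642 and 3662. Of the D-type cyclins, CCND1 fell 3.20-fold, from 5436 to 1701, while CCND2 rose 14.3-fold, from 112 to 1611. CCND3 was 3.51-fold higher, but its probe sets did not all move the same way. With the median over probe sets the log2 folds of CDKN2D, CCND2 and CCND3 were 0.91, 0.74 and 0.88, all under 2-fold.

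Histone deacetylase genes are given here whether or not romidepsin inhibits the enzyme. Of 11 such genes, 1 rose and 1 fell, against 14.8% and 11.8% of all genes measured. HDAC3 rose 2.84-fold, from 1113 to 3156, and HDAC7, a class IIa enzyme, fell 3.18-fold, from 368 to 116. HDAC1 had signals of 10462 and 11633, a ratio of 1.11, and HDAC2 11317 and 9881, 1.15-fold lower, neither of them called. Of 12 acetyltransferase and bromodomain genes, KAT6B fell 2.28-fold, KAT2A 2.198-fold and KAT5 2.16-fold, and 0 rose. Among 22 enzymes of histone and DNA methylation 4 fell, the H3K9 methyltransferase SUV39H1 by 4.61-fold, TET2 by 3.45-fold, DNMT3A by 2.83-fold and DNMT1, the maintenance methyltransferase, by 2.33-fold. By the median over probe sets HDAC7 and KAT5, at -0.83 and -0.74 on the log2 scale, were under 2-fold.

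Histone genes themselves were higher in most cases. They numbered 14, with 8 rises, 1 fall and a list median of 1.66 on the log2 scale. H4C8 rose 6.15-fold, H2BC5 5.73-fold, from 739 to 4233, and H2BC4 at least 5.27-fold. The others were H2AC8, H2AC6, H2BC21, the linker histone H1-2 and H1-10, between 2.74-fold and 4.15-fold. The exception was H2AX, the variant phosphorylated at DNA breaks, 2.10-fold lower. With the floor at the 75th percentile the log2 fold of H4C8 was 0.10, under 2-fold, and the list median was 0.96. Copies of histone genes are close in sequence, and probe sets may read more than 1 of them.

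Neuronal and cancer-testis genes rose in part, and some of them were not silent without romidepsin. MAGEA1 gave 564 in untreated cells and 440 with tamoxifen, and PAGE1 gave 97.7 with tamoxifen. Of 17 measured neuronal and neuroendocrine genes, 6 rose and 1 fell, among them secretogranin II (SCG2), 17.8-fold, the kinesin KIF5C, 13.6-fold, the synaptic protein SNAP25, 2.92-fold, and chromogranin B (CHGB), 2.76-fold. The neuronal enolase ENO2 fell 2.32-fold. Of the cancer-testis genes only 5 were measured, of which SSX1 rose at least 10.7-fold, PAGE1 5.29-fold, MAGEA1 3.34-fold and MAGEA4 at least 2.12-fold. SSX1 and MAGEA4 were measured only through the combination array and could only rise. With a pseudocount in place of the floor, which takes in every member with a probe set, the list median was -0.16 in place of 1.74, and MAGEA4 was under 2-fold, at 0.95 on the log2 scale, with arrays centred on their medians. Among other reported response genes of deacetylase inhibitors, the thioredoxin inhibitor TXNIP rose 8.61-fold and clusterin (CLU) 2.10-fold, and TGFBR2 fell 2.10-fold. CLU had a log2 fold of 0.86 by the median over probe sets, and KIF5C of 0.43 without probe sets that can read several transcripts.

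**Figure D5:**
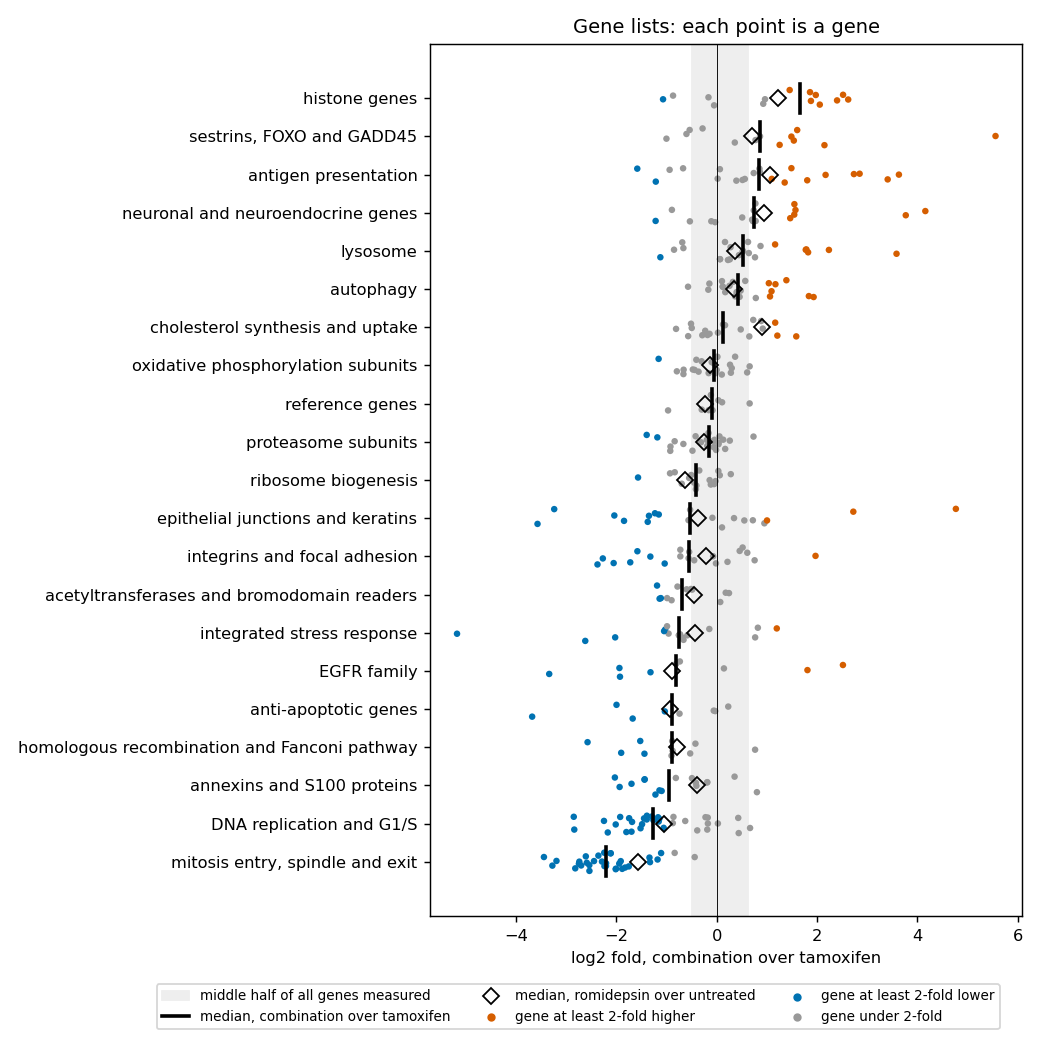
Log2 fold of the combination over tamoxifen (horizontal axis) for each measured gene of 21 lists, with black bars at the list medians, open diamonds at the medians of romidepsin over untreated cells and a grey band at the middle part of all genes (-0.49 to 0.62). Mitosis genes lie at the left, with a median of -2.204, and histone genes at the right, with a median of 1.66.

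Antigen presentation genes were higher in part. The antigen presentation list gave 9 rises and 2 falls over 21 genes, its median being 0.85 on the log2 scale. HLA-DPA1 gave 96.3 in untreated cells, 1004 with romidepsin, 98.6 with tamoxifen and 1221 with the combination, 12.4-fold higher. HLA-DRB1 rose 10.6-fold, the peptide-loading subunits HLA-DMB and HLA-DMA 7.20-fold and 4.50-fold, HLA-DPB1 at least 6.65-fold and HLA-DRA at least 3.49-fold. Of the class II genes in the list, HLA-DOA, at 1.43-fold higher, and their activator CIITA, at 1.31-fold higher, were not called, and CD74 lay below the floor on both arrays. Of class I, HLA-B rose 2.56-fold and HLA-C 2.14-fold; signals of HLA paralogs that share probes cannot be told apart. HLA-B had a log2 fold of 0.86 by the median over probe sets, and HLA-C one of 0.95 with arrays centred on their medians. The immunoproteasome subunits went opposite ways, PSMB9 2.81-fold higher and PSMB8 2.99-fold lower, and the peptide editor TAPBP fell 2.32-fold. Interferon-stimulated genes were divided, with 4 rises and 4 falls of 16. IRF7 rose 4.72-fold and IFI6 3.22-fold, while ISG20 fell 4.27-fold and IFIT2 at least 2.82-fold, or -0.75 on the log2 scale by the median over probe sets.

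Chemokines and cytokines gave 5 rises and 3 falls of 15, and 4 of the chemokines that rose had lower signals with the combination than with romidepsin alone. CXCL8 (interleukin 8) lay below the floor in untreated cells and with tamoxifen, and gave 1351 with romidepsin and 348 with the combination, at least 5.24-fold against at least 20.4-fold. CCL20 gave 1972 and 427 on these arrays, at least 29.7-fold and at least 6.44-fold. CXCL1 rose at least 3.71-fold, against 16.2-fold, and CXCL2 at least 2.26-fold, against 6.11-fold. CXCL11 went the other way, with 72.2 and 272. The cytokine LIF fell 11.1-fold and the macrophage growth factor CSF1 5.98-fold, or -0.55 on the log2 scale by the median over probe sets. By the same rule CXCL8 had a log2 fold of 1.56. Of NF-kappaB genes, 3 rose and 3 fell of 12, with the inhibitor TNFAIP3 3.98-fold and NFKBIZ 3.23-fold higher and TNFAIP2 4.18-fold and the subunit NFKB1 3.27-fold lower.

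Growth factor signalling genes moved both ways. Beside the counts of these lists, 14.8% of all genes measured rose and 11.8% fell. In the EGF receptor family 4 genes fell and 2 rose of 9. EGFR gave 4784 in untreated cells, 1893 with romidepsin, 5626 with tamoxifen and 1470 with the combination, 3.83-fold lower than with tamoxifen, and ERBB2 was 2.49-fold lower. Of their ligands, epiregulin (EREG) fell 10.1-fold, against 2.94-fold without tamoxifen, and NRG1 3.80-fold, while TGFA rose 5.72-fold and HBEGF 3.50-fold. By the median over probe sets EGFR, ERBB2, NRG1, TGFA and HBEGF were all under 2-fold, at -0.81, -0.58, -0.35, 0.72 and 0.77 on the log2 scale, so that of these genes EREG alone kept its call. Of 19 genes of MAP kinase output, 4 rose and 6 fell. The immediate early gene EGR1 rose 8.50-fold and the ERK phosphatase DUSP6 5.88-fold, whereas ETS2 fell 11.2-fold, PHLDA1 5.05-fold and SPRY2 3.43-fold. Of the AP-1 subunits FOS rose 9.37-fold and FOSL1 fell 19.5-fold. MYC gave 5208, 1668, 4042 and 648 and was 6.23-fold lower with tamoxifen present and 3.12-fold without it. Its antagonist MXD1 rose 5.98-fold and MYCL 3.22-fold, the latter 0.84 on the log2 scale by the median over probe sets. Of 17 ribosome biogenesis genes, 1 fell, GRWD1, 2.96-fold.

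The insulin and IGF group had 3 rises and 3 falls of 12. For this and the next lists, the shares over all genes measured were 14.8% and 11.8%. IGFBP3 rose 3.80-fold, while IGFBP4 fell 5.58-fold and the adaptor IRS1 3.14-fold. YAP and TEAD target genes gave 2 rises and 5 falls of 15, with CCN2 10.4-fold and ANKRD1 at least 19.2-fold higher, and FJX1 4.74-fold and the receptor kinase AXL 4.12-fold lower. In the TGF-beta pathway SMAD3, the mediator of receptor signalling, fell 8.78-fold, from 4278 to 487, and ID2 rose 4.55-fold. Of 23 WNT pathway genes 7 rose and 5 fell, with WNT5A at least 4.92-fold, LEF1 at least 4.59-fold and LRP6 3.15-fold higher, and DACT2 10.7-fold and LRP5 6.24-fold lower. Of 16 Notch pathway genes the targets HEY2, at least 11.5-fold, and HES1, 3.08-fold, were among 3 that rose, and 1 fell.

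Genes that hold off cell death were lower in part. The anti-apoptotic list gave 4 falls and 0 rises over 8 genes, its median being -0.89 on the log2 scale. BCL2A1 went from 1121 to 87.8, 12.8-fold lower, CFLAR, the inhibitor of caspase 8 at death receptors, fell 3.98-fold, BCL2L1 (BCL-XL) 3.19-fold and XIAP 2.04-fold. Of 10 pro-apoptotic members, BIK rose at least 7.59-fold and BCL2L11 (BIM) 3.54-fold, while BID fell 3.92-fold, BOK 2.18-fold and BAX 2.07-fold. BCL2L11, at 0.13 on the log2 scale, BOK, at -0.56, and TNFRSF10A, at -0.87, were under 2-fold by the median over probe sets, and CFLAR, at -0.60, without probe sets that can read several transcripts. Among 8 death receptor genes the TNF receptor TNFRSF1A fell 6.82-fold, TNFRSF10A (the TRAIL receptor DR4) 3.79-fold and CASP8 2.10-fold, and the decoy receptor TNFRSF10D rose 3.29-fold.

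Genes of the sestrin, FOXO and GADD45 group and of lysosomes and autophagy rose in part. Of 13 genes in the first group, 6 rose and 0 fell, with a median of 0.86. TP53INP1, which acts in autophagy and p53 signalling, was below the floor in untreated cells and gave 638 with romidepsin, 358 with tamoxifen and 1587 with the combination, a 4.43-fold rise. ZMAT3 rose 3.04-fold and SESN1 2.90-fold. Of 22 autophagy genes 7 rose and 0 fell, among them the protease ATG4A, 3.81-fold, and the ATG8 family members GABARAPL1, 3.57-fold, MAP1LC3A, 2.62-fold, and MAP1LC3B, 2.25-fold. The others were ATG12, GABARAPL2 and WIPI2, between 2.06-fold and 2.13-fold, and all 3 were under 2-fold with arrays centred on their medians. ATG12 was so by the median over probe sets too, at 0.60 on the log2 scale. Of 23 lysosome genes 6 rose and 1 fell. The sialidase NEU1 rose 11.98-fold, the lysosomal calcium channel MCOLN1 4.71-fold and the proton pump subunits ATP6V0D1 and ATP6V1A 3.54-fold and 3.45-fold. The medians of these last lists were 0.43 and 0.52, within the quartiles of all genes measured.

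The integrated stress response had 5 falls and 1 rise among 17 genes, with a median of -0.75. Besides NUPR1, ATF5 fell 6.13-fold, the pseudokinase TRIB3 4.06-fold and the amino acid transporters SLC3A2 and SLC7A11 2.07-fold and 2.04-fold. Of 16 genes of the unfolded protein response, SEL1L, an adaptor in the degradation of misfolded proteins, rose 2.93-fold and the transcription factor XBP1 fell 2.61-fold. Of 9 heat shock chaperones the small chaperone HSPB1 fell 4.35-fold, HSPH1 2.90-fold and HSPE1 2.08-fold, and DNAJB1 rose 2.27-fold. ATF5 and XBP1 were under 2-fold by the median over probe sets, at -0.75 and -0.69 on the log2 scale. Lists that moved little were the reference genes, with 0 of 8 called, oxidative phosphorylation, with 1 fall of 23, and the proteasome, with 2 falls of 23. The reference gene medians were -0.10 with tamoxifen present and -0.23 without it.

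Cholesterol genes are where tamoxifen alone already stood high. HMGCS1, which makes the substrate of the rate-limiting reductase, gave 717 in untreated cells, 4277 with romidepsin, 3931 with tamoxifen and 8822 with the combination. The rise on adding romidepsin was 2.24-fold with tamoxifen present and 5.97-fold without it. INSIG1, the sterol sensor that holds back this pathway, rose 3.002-fold, from 8239 to 24732, against 5.73-fold without tamoxifen, and the transcription factor gene SREBF1 rose 2.31-fold. These were the 3 genes of 19 that rose, and 0 fell; without tamoxifen 8 rose. IDI1, the isopentenyl diphosphate isomerase, gave 12654 and 23914, 1.89-fold higher with tamoxifen present and 4.65-fold higher without it, and its probe sets did not all move the same way. MSMO1 gave 19726 and 16180, and EBP and DHCR7, the subunits of the antiestrogen binding site, gave 10735 and 7612, and 9789 and 8361, none of them called. The list median was 0.13 with tamoxifen present and 0.91 without it, and the first turned to -0.02 with arrays centred on their medians. Of 15 genes of fatty acid and glycerolipid synthesis 3 rose, GPAM 3.52-fold, ACSL1 2.96-fold and FASN 2.39-fold, and the desaturase FADS2 fell 4.52-fold and the elongase ELOVL6 3.20-fold. FADS2 came to -0.65 on the log2 scale without probe sets that can read several transcripts.

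The estrogen receptor gene ESR1 was not above the floor without romidepsin. ESR1 lay below the floor in untreated cells and with tamoxifen, and gave 122 with romidepsin and 196 with the combination, at least 2.96-fold higher than with tamoxifen. The progesterone receptor gene PGR, a target of the estrogen receptor, was below the floor on all 4 arrays, and the coactivator NCOA2 fell 3.55-fold, or -0.21 on the log2 scale by the median over probe sets. Of the genes in this group 12 were measured, with 1 rise and 1 fall.

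Annexin and S100 genes, which encode calcium-binding proteins of membranes and cytoskeleton, fell in 8 of 16 cases with tamoxifen present and in 2 of 16 without it, and 0 rose in either. Over all genes measured 11.8% and 9.27% fell, and the difference between the counts was not tested. The median log2 folds were -0.95 and -0.40. S100A10, a partner of annexin A2 in plasmin activation, gave 28740 in untreated cells, 12693 with romidepsin, 19372 with tamoxifen and 4754 with the combination, 4.08-fold lower, against 2.26-fold without tamoxifen. S100A2 fell 3.82-fold, S100A11 2.70-fold and S100A4 2.33-fold, the last with a ratio of 1.29 without tamoxifen. ANXA1 gave 6071, 6243, 13310 and 6229, so that the tamoxifen array alone was high. ANXA4 fell 2.71-fold. By the median over probe sets ANXA1 was under 2-fold, at -0.94 on the log2 scale.

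Adhesion and matrix genes moved both ways, where 14.8% of all genes measured rose and 11.8% fell. Of 20 integrin and focal adhesion genes 7 fell and 1 rose. The integrins ITGA3, ITGB5 and ITGA5 fell 5.18-fold, 2.99-fold and 2.50-fold, the caveolins CAV2 and CAV1 4.81-fold and 3.30-fold, and paxillin (PXN) 4.15-fold, while ITGB8 rose 3.92-fold. Of 19 genes of epithelial junctions and keratins 8 fell and 3 rose. KRT80 fell 11.9-fold and claudin 4 (CLDN4) 9.42-fold, from 4284 to 455, whereas desmoplakin (DSP) rose at least 27.2-fold and EPCAM 6.60-fold. Of the mesenchymal markers and EMT factors 4 fell and 2 rose of 10, with PRRX2 at least 8.01-fold and FOXC2 5.11-fold lower, and SNAI1 at least 4.79-fold and SNAI2 3.06-fold higher. Epithelial and mesenchymal genes thus each held rises and falls. Among 20 collagens, laminins and matrix assembly genes 6 rose and 3 fell, with COL12A1 5.91-fold higher and LAMB1 3.29-fold lower, and fibronectin (FN1), whose probe sets did not all move the same way, at least 17.5-fold higher. FN1 came to -0.03 on the log2 scale without probe sets that can read several transcripts, and COL12A1 to 0.78 by the median over probe sets. The protease inhibitor SERPINE2 rose 7.33-fold and tissue factor (F3) 3.33-fold, next to the falls of PLAU and TFPI, and 4 of the 7 coagulation and plasminogen genes measured fell in all. Of 15 matrix metalloproteinase genes 2 rose and 1 fell, no more than the shares over all genes. MMP15 was 3.66-fold higher, or 0.94 on the log2 scale by the median over probe sets.

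Drug transport and detoxification genes moved in both directions. ABCB1, the P-glycoprotein efflux pump, was below the floor in untreated cells and with tamoxifen, and gave 343 with romidepsin and 569 with the combination, at least 8.58-fold higher. ABCA1 rose at least 4.35-fold, while ABCC3 fell 10.1-fold, ABCG2 2.78-fold, ABCC1 2.65-fold and ABCC4 2.29-fold. The iron exporter SLC40A1 rose at least 14.2-fold and GCLC, the glutathione synthesis enzyme, 2.88-fold, and the NRF2 targets AIFM2 and NQO1 fell 5.38-fold and 3.96-fold. For ABCG2 and NQO1 the folds without tamoxifen were 1.28 and 1.68 lower, neither called. Of 27 genes of glycolysis and hypoxia response 3 rose and 4 fell, against 14.8% and 11.8% of all genes measured, with ALDOC 3.31-fold higher and PFKP 3.06-fold lower. In the metallothionein group MTF1 rose 2.27-fold and MT1G fell 2.34-fold. Of the KLF factors KLF15 rose at least 7.81-fold and KLF6 fell 5.11-fold, and of the foregut factors FOXA2 fell 2.61-fold and ONECUT2 rose 2.38-fold. The splicing factors SRSF4 and SRSF7 fell 3.41-fold and 2.55-fold, the probe sets of SRSF7 not all the same way, among 14 genes of which 0 rose. By the median over probe sets ABCA1, PFKP, MTF1, MT1G, ONECUT2 and SRSF7 were under 2-fold, at 0.62, -0.87, 0.48, -0.61, 0.79 and -0.47 on the log2 scale, and ABCB1 had a log2 fold of 1.55.

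The lists whose median changed sign under another scaling were the reported response genes of deacetylase inhibitors, NF-kappaB, AP-1, cholesterol, glycolysis, TGF-beta and the ABC transporters, so no direction is given for these lists as a whole. With other floors, a pseudocount and probe-set rules included, the sign turned in 23 of 59 lists. With the floor at the 75th percentile the WNT median went from 0.23 to -0.62, that of chemokines and cytokines from 0.37 to -0.14, and that of foregut factors from 0.33 to -0.32.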

How the data were processed

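Total RNA, taken up in TRI reagent, was labelled from 100 ng with a 3′ in vitro transcription kit, per the labels' protocols. The authors deposited 1 intensity per probe set and array, unlogged, and the submitters' processing notes name MAS5 without a version. Each array's trimmed mean is 499.9, so the authors' scaling takes the bulk of signal as equal in all samples. A gene took the values of the probe set that was brightest on average (mean log2 signal, 4 arrays), and signals under the floor of 66.4 were set to it before log2 was taken. Symbols and promoters came from RefSeq (GRCh38.p14). Groups follow the labels.

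The comparison, the 61 gene lists (981 genes, of which 82 had no probe set of their own and 816 were measured) and the motifs were chosen with earlier results of these data known. Named were the 12 largest rises and falls above the floor and the 5 largest against it, provided all probe sets moved one way. Also named were list members called or among the 4 largest, up to 6 genes each way called oppositely or within 1.2-fold without tamoxifen, and 14 genes fixed by name. Alternatives were other floors, a pseudocount, scalings, probe-set rules and thresholds. The steps were tested on simulated data. Calculations used Python 3.11.15, numpy 2.4.6, pandas 2.3.3 and scipy 1.17.1, and figures matplotlib 3.10.9.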

Additional observations from a re-analysis of the deposited data

Results flagged for a closer look

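In 3 genes the arrays moved in opposite directions when romidepsin was added with and without tamoxifen, both by at least 2-fold and with all measured probe sets on one side. CDH24, a cadherin, had a log2 fold of 1.21 with tamoxifen present, with signals of 106 and 246, and was at least 2.71-fold lower without it. ANHX, a homeobox gene, had a log2 fold of -1.98 with tamoxifen present, a bound, and was 2.35-fold higher without it. AVPR1B, a vasopressin receptor, had a log2 fold of -1.18 with tamoxifen present, also a bound, and was at least 2.44-fold higher without it. With the median over probe sets CDH24 and ANHX had log2 folds of 0.97 and -0.99 with tamoxifen present, just under 2-fold. None of the signals of these 3 genes exceeded 262. The difference rests on 1 array per condition and was not tested.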

How the results depend on the processing

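Counts moved with the floor and the threshold. With the floor at the 25th percentile of signals 3079 genes rose, and at the 75th 971 rose and 1043 fell, or 48.2% rises. At 1.5-fold 3649 rose and 3039 fell, and at 3-fold 917 and 663, or 58.0% rises; these follow from the construction. Rises were 45.8% of calls with arrays centred on their medians, 51.5% with quantile normalization, 51.6% with scaling to spike-ins and 57.5% without probe sets that can read several transcripts. The share of rises also found without tamoxifen was 63.3% and 64.9% at the lower and higher floor, 61.6% with a pseudocount of 16, 70.0% with quantile normalization and 69.7% with the median over probe sets. For falls it was 48.1% at the lower floor, 47.4% with the pseudocount, 68.7% with median centring, 57.7% with spike-in scaling and 58.2% with the median over probe sets. The cause of these shifts was not tested. The median of the cancer-testis list turned from 1.74 to -0.16 with the pseudocount, which brings in members below the floor. Of 462 list medians recomputed, 427 stayed within 0.30 of the reported value on the log2 scale, the median difference between probe sets of a gene, and 35 did not. The sign turned in 45 of the 462, over 23 of 59 lists, and among medians of at least 2-fold in 1, that of the cancer-testis list. Of 443 values of 60 named genes, 350 stayed within 0.30, 93 did not, and the sign turned in 0. That count leaves out genes named only as list members. Among all 363 called genes in a list or named, 2 changed sign with the median over probe sets. Without probe sets that can read several transcripts 6 did, FN1 among them. No paired analysis was possible because each condition has 1 array, and no replicate could be left out. Signals near the floor limit falls of dim genes, and variation between cultures was not measured.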

Other observations

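Probe sets without a gene name in the annotation used also differed. Of 11721 such probe sets 3728 were measured, and 10.3% of these were at least 2-fold higher and 4.72% at least 2-fold lower with romidepsin added. For probe sets that name 1 gene the shares were 13.6% and 11.05%.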
